A study of Gallus gallus with 18 samples.

Results

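The genes described here are 35 genes of the cell cycle and of DNA replication, out of 17108 genes counted in the chicken RNA-seq data. A list of 40 proliferation genes was searched by symbol among the pairs of identifier and symbol published with the study. CDC6, CHEK1, MCM10, PRIM1 and UBE2C were not found there and were not analysed here. The list goes by function and its rule has no measured value, but the published pairs do rest on measured values. Of the 35 genes, 31 stood in the study's list of ovary expression, 10 of them only there. The other 4 (CCNA2, CCNE2, TOP2A and E2F1) were found only in its ranked lists of feeding contrasts. CCNE2 stood in the ovary part of these lists and the others in the liver part. The liver part of those lists held 22 of the 35 genes, the ovary part held 6 and the adipose part held 0. High ovary levels and movement in liver therefore made a gene easier to find. The further pathway genes and cell type markers below were found through the same pairs.

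The samples came from Arbor Acres broiler breeder hens, a meat-type parent line, sampled at necropsy at 30 wk of age. All hens were reared under the same breeder guide first. From 22 wk of age, 1 group was given its ration ad libitum and the other group stayed on the restricted allowance of the breeder guide. Liver, abdominal fat (called adipose here) and ovary were taken from the same 6 hens, 3 per feeding group, which gave 18 libraries from total RNA. The ovary samples were stroma with small follicles, so they mixed oocytes, granulosa cells and connective tissue. Each library name joins a letter for the tissue (G for liver, F for adipose tissue, M for ovary) to the number of the hen. The ad libitum livers were G1721, G1723 and G1725 and the restricted livers G1724, G6709 and G6710, and the same numbers follow F and M.

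A dividing cell copies its DNA in S phase and separates the copies in mitosis. Ribonucleotide reductase makes the deoxynucleotides, the MCM helicase with CDT1 and CDC45 opens the replication origins, and the polymerases with PCNA and FEN1 build and mend the new strands. CDK1 with the B cyclins then drives the cell into mitosis, the spindle checkpoint holds it until the chromosomes are attached, and separase cuts the cohesin rings. Transcripts of these genes are abundant where cells divide and scarce in resting hepatocytes and adipocytes. Oocytes are known to store many of the mitotic transcripts, such as those of the B cyclins and Aurora A, without dividing.

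RRM2 (ENSGALG00000016442), the regulatory subunit of ribonucleotide reductase, had the largest liver difference of any member and lies on chromosome 3 in the RefSeq GRCg7b table. The study designed a primer pair for it, which is shown because this gene opens the liver results. Both are written 5′ to 3′ in lower case.
RRM2 forward primer: cgtgtgcttcttctcctggtatgt
RRM2 reverse primer: tcgcctgccatgccaagttc

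Library totals ran from 14793554 to 23261748 counts, and 3 counts corresponded to 0.129 to 0.203 counts after scaling each library to a total of 1000000 (CPM). This floor covers counting error only. Levels below are CPM after TMM scaling within 1 tissue, unless the joint scale of all 18 libraries is named. Each log2 fold change is ad libitum minus restricted, with its standard error (SE), and the false discovery rate (FDR) is adjusted over all genes tested in that tissue by the edgeR quasi-likelihood test. A call means an FDR under 0.1. The hens were separate animals, and p-values measure the spread between them. With 3 hens against 3, an exact permutation test cannot go below p = 0.1.

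The liver of 1 restricted hen stood apart. All 35 genes had their highest liver level in G1724, while among all genes above 1 CPM in some liver library 27.3% were highest there. The level in that library was over 2 times that of every other liver library for 27 of the 35 genes, against 1.45% of the same background. CCNA2, TOP2A and E2F1 were found only in the liver part of the study's feeding lists, where 22 of the 35 genes stood. These shares are therefore not independent of how the genes were found. The mean of the 35 genes, on the scale of log2(CPM + 1), was 3.57 in G1724, 1.90 in G6709 and 1.845 in G6710. With ad libitum feeding it was 1.995 in G1721, 1.92 in G1723 and 1.875 in G1725. Without TMM factors the value in G1724 was 3.58, and the other 5 libraries lay between 1.765 and 2.05. The library G1724 had the largest total of all, and its summed hepatocyte markers (145100 CPM) lay within the 122700 to 154000 CPM of the other livers. ALB alone gave 120100 CPM of that sum in G1724.

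**Figure D1:**
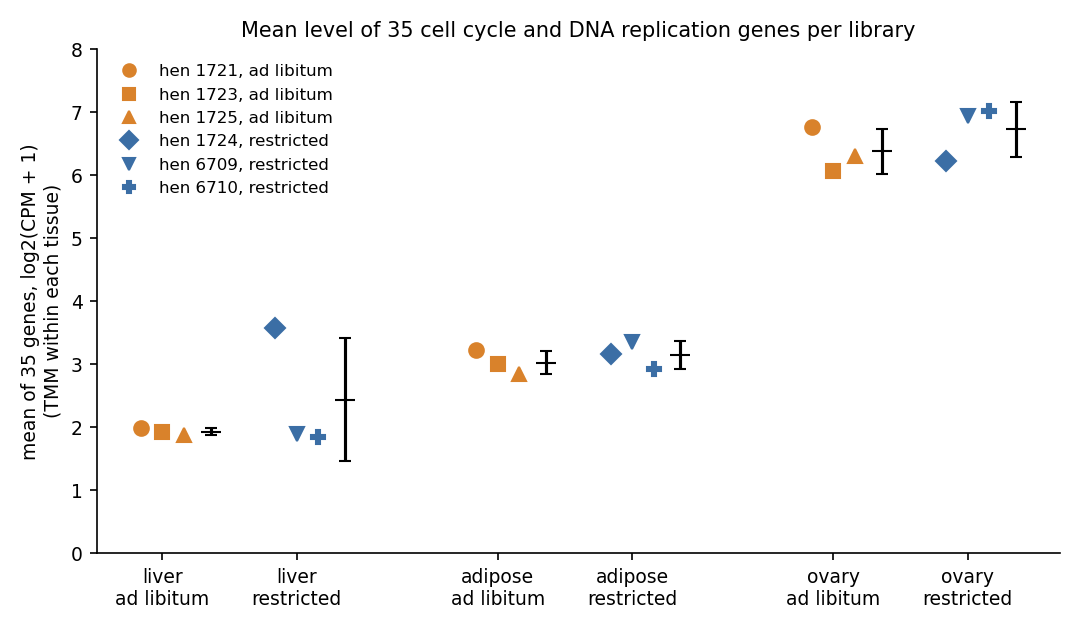
Mean of 35 cell cycle and DNA replication genes in each of 18 libraries, as log2(CPM + 1) with TMM scaling within each tissue, so levels may be compared within a tissue only. Each symbol is 1 hen, and the bars give the mean and SD of 3 hens. The liver of restricted G1724 (3.57) lies above the other 5 livers (1.845 to 1.995), and the same hen is inside the range of the others in adipose tissue and ovary.

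Nucleotide supply was the role with the largest single difference. RRM2 was at 1.35, 0.975 and 0.900 CPM in the ad libitum livers of G1721, G1723 and G1725, and at 27.7, 1.52 and 0.605 CPM in the restricted livers of G1724, G6709 and G6710. G1724 was 18.2 times the next library, the largest such ratio of all 11329 genes above 1 CPM in a liver library, and the groups overlapped because the lowest value was also restricted. These values rest on 653 counts in G1724 and 14 to 35 counts in the other livers. RRM1, the catalytic subunit, was at 9.70, 9.08 and 8.95 CPM with ad libitum feeding and at 24.6, 7.82 and 6.66 CPM with restricted feeding. Among the other livers, both remaining restricted livers lay below all ad libitum livers for RRM1.

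The origin licensing and helicase genes were all over 3 times higher in G1724 than in any other liver. CDT1, which loads the helicase onto origins, was at 2.66, 1.39 and 1.29 CPM with ad libitum feeding and at 16.4, 1.13 and 2.77 CPM with restricted feeding. For MCM2 the levels were 6.59, 3.33 and 2.81 CPM against 23.7, 2.83 and 5.54 CPM. MCM3 stood at 2.89, 1.44 and 1.63 CPM against 14.2, 2.04 and 1.95 CPM. MCM2 to MCM6 are subunits of the same ring, and in each of them G1724 was the highest liver, followed by G1721 or G6710. In MCM4 the ad libitum livers had 3.88, 3.03 and 2.64 CPM and the restricted livers 22.6, 2.96 and 4.76 CPM. MCM5 had 3.16, 1.18 and 1.46 CPM against 13.5, 1.999 and 3.29 CPM. MCM6 had 4.92, 3.54 and 3.88 CPM against 19.6, 3.22 and 3.59 CPM. The group ranges overlapped for each of these genes. CDC45, a partner of the ring, was at 7.39 CPM in G1724 and between 0.587 and 2.25 CPM in the other livers.

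The DNA synthesis genes differed less in that liver, by 2.42 to 2.999 times the median of the other 5 livers. PCNA, the sliding clamp of the polymerases, was at 18.1, 29.4 and 19.5 CPM with ad libitum feeding and at 64.3, 26.6 and 29.6 CPM with restricted feeding. FEN1, the flap endonuclease of lagging strand synthesis, was at 3.39, 4.05 and 3.38 CPM against 12.2, 4.82 and 4.63 CPM. FEN1 was the only 1 of the 35 genes whose liver groups did not overlap, where 21.2% of all tested genes did not overlap in this tissue. Only 23 of the 35 genes, FEN1 among them, passed the filter into that tested set. POLA1, the catalytic subunit of DNA polymerase alpha, was at 16.1 CPM in G1724 and at 5.91 to 7.28 CPM elsewhere.

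Among the cyclins and their partners, CDK1, the mitotic kinase, was at 2.44, 3.49 and 2.08 CPM in the ad libitum livers and at 18.5, 3.61 and 1.60 CPM in the restricted livers. CCNB2, a B cyclin, was at 2.30, 3.69 and 2.59 CPM against 13.6, 2.39 and 3.46 CPM. The number given for this gene in the study's lists belongs to CCNB1 in RefSeq GRCg7b, so which B cyclin is meant is uncertain. CCNB3 was near the floor, at 0.858, 0.154 and 0.338 CPM against 2.42, 0.652 and 0.346 CPM. CCNA2, the S phase and mitotic cyclin, reached 5.18 CPM in G1724 and at most 2.26 CPM elsewhere. E2F1, a transcription factor of S phase genes, reached 26.3 CPM against at most 13.2 CPM. CCNE2, an E cyclin, stayed under 1 CPM in every liver, with 0.977 CPM in G1724.

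The mitotic genes varied more in how far G1724 stood out. MKI67, the Ki-67 coat protein of mitotic chromosomes, was at 4.29, 5.13 and 4.22 CPM with ad libitum feeding and at 19.2, 3.52 and 1.82 CPM with restricted feeding. TOP2A, the topoisomerase that untangles sister chromosomes, was at 2.26, 1.80 and 2.25 CPM against 8.88, 2.35 and 1.43 CPM. NUSAP1, a microtubule bundling protein of the spindle, was at 0.948, 0.923 and 0.844 CPM against 8.54, 0.9995 and 0.692 CPM. For these genes the other 2 restricted livers lay within or below the ad libitum range or just above it. The remaining spindle and kinetochore genes KIF11, KIF23, CENPF, DLGAP5 and TPX2 were 2.91 to 3.935 times the next liver. PLK1, AURKA and MAD2L1, a pair of mitotic kinases and a checkpoint protein, were 3.14 to 3.34 times the next liver. BUB1B, TTK and CDC20, of the spindle checkpoint and its target, were 1.25 to 1.98 times the next liver.

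BUB1, ESPL1 and KIF20A were at 1.40, 1.01 and 1.67 times the next liver in G1724. BUB1, a checkpoint kinase, was at 53.7, 46.2 and 13.5 CPM with ad libitum feeding and at 118, 11.6 and 83.8 CPM with restricted feeding, so G6710 was also high and the groups overlapped. RefSeq GRCg7b places the uncharacterized gene LOC121110243 over BUB1, and the counting is not stated to use strand, so reads of the pair could not be told apart. ESPL1, which encodes separase, differed little between livers, from 18.3 to 27.2 CPM. KIF20A, a kinesin of cytokinesis, was at 10.03 CPM in G1724 and at 5.46 to 6.002 CPM in the others, and RefSeq places SFXN1 over it. RefSeq also places LOC124417695 over MCM4, LOC112532758 over MCM6, LOC124417672 and LOC112531632 over POLA1, and MIR1712 over TTK.

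**Figure D2:**
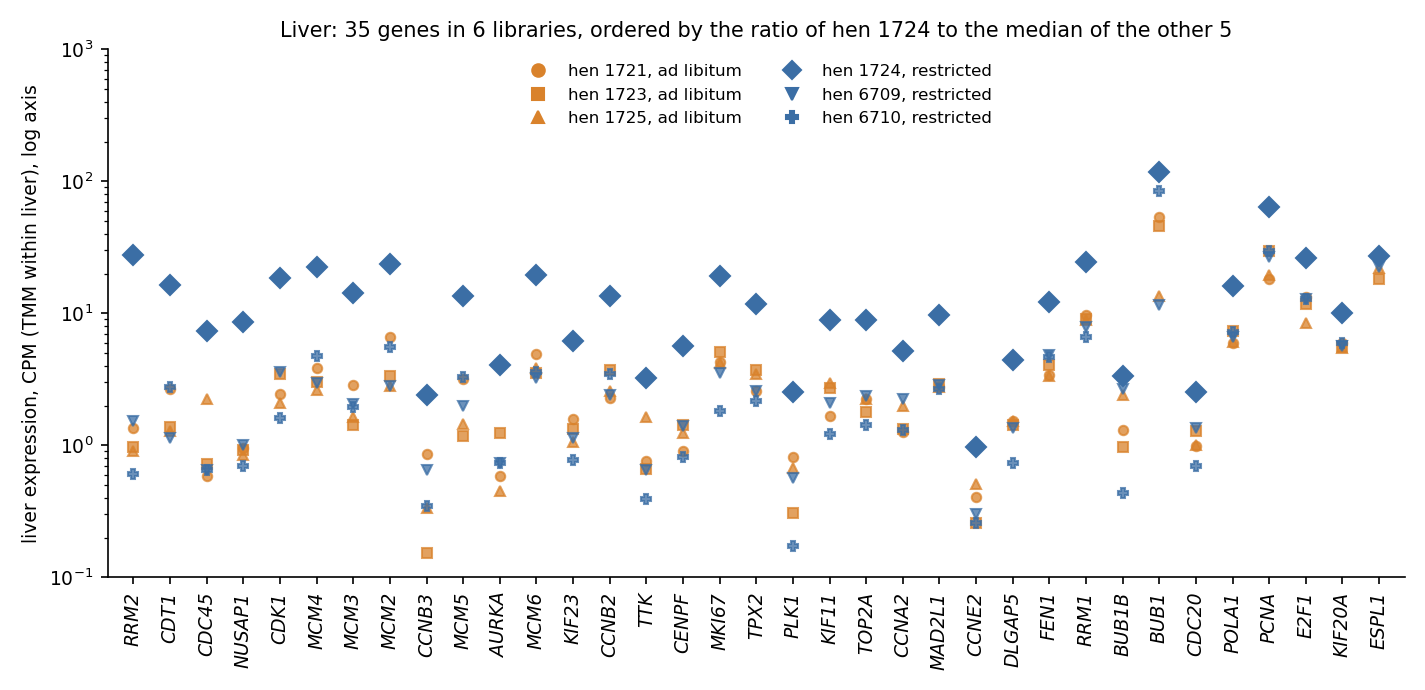
Level of each of the 35 genes in 6 liver libraries (CPM, TMM within liver, log axis), ordered by the ratio of G1724 to the median of the other 5. Each symbol is 1 hen. G1724 is the highest symbol for every gene, from 28.5 times the median for RRM2 down to 1.22 times for ESPL1.

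The summed erythroid and macrophage markers in the liver of G1724 were within the range of the other livers, but single markers were not always. The summed erythroid markers were 634 CPM there and 382 to 1009 CPM in the others, the macrophage sum was 643.5 CPM against 616 to 1052 CPM, and the T cell sum was 66.2 CPM against 38.5 to 66.1 CPM. Within the macrophage list, MARCO (72.7 against at least 92.7 CPM), TLR4 (3.44 against at least 4.02 CPM), CD14, CYBB, MPEG1 and PTPRC were lowest in G1724. The other macrophage markers were not. Of the fibroblast list, PDGFRB was at 1.19 CPM in G1724 and at least 4.74 CPM elsewhere. PDGFRA and DES were also lowest there, LUM was highest, and COL1A2 and DCN were neither. The endothelial sum, over 7 markers, was 162 CPM in G1724 and 304 to 471 CPM in the other livers. Of the 8 oocyte markers found, 4 were at 0 in that liver. Fewer cells of a type and less RNA per cell cannot be told apart in bulk tissue, and the part of these shifts in the results was not tested.

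No member passed the feeding test in liver. Of the 35 genes, 23 passed the filter on low counts (above 1 CPM in each library of a feeding group), and all 23 had a negative log2 fold change, with a median of -0.91 where the median of all tested genes was -0.0044 and 50.4% of them were negative. Since 22 of the 35 genes stood in the liver part of the study's feeding lists, their liver directions are not independent of how they were found. The edgeR quasi-likelihood test called 0 of the 23, where it called 0.00967% of all genes. An unadjusted p under 0.05 was reached by 4 of the 23, against 13.7% of all genes. DESeq2 and the likelihood ratio test with gene-wise dispersions also called 0, where they called 2.33% and 1.41% of all genes. FEN1 had the smallest FDR, 0.346, at a log2 fold change of -0.998 (SE 0.40), followed by MCM4 at -1.66 (SE 0.69, FDR 0.3595) and PCNA at -0.85 (SE 0.36, FDR 0.364) in the edgeR test. CDT1 had the largest filtered difference, -1.92 (SE 0.88, FDR 0.374), and MCM5 the next, -1.68 (SE 0.72, FDR 0.364). RRM2 did not pass the filter, and its edgeR fit without a filter gave -3.20 (SE 1.15, FDR 0.420).

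The liver direction rested on G1724. With all hens and no filter, 35 of 35 genes had a negative fold change, against 49.9% of all genes, and the median was -0.94. After G1724 was left out, 14 were negative and 21 positive, the median was 0.031, and 49.7% of all genes were negative. The value of RRM2 became 0.024, that of CDK1 0.039, of MCM2 0.031, of MCM3 0.00079, of MCM6 0.28, of RRM1 0.36, of TOP2A 0.16, of NUSAP1 0.10 and of MKI67 0.77. FEN1, PCNA, MCM5, MCM4, CDT1 and BUB1 stayed negative, from -0.44 to -0.12, and their groups overlapped except for FEN1. Leaving out any other hen kept all 35 negative, with medians from -1.335 to -0.95. The likelihood ratio test with trended dispersions called 10 members in liver (CDT1, MCM2 to MCM6, PCNA, CDK1, CCNB2 and BUB1), with 3.82% of all genes called, and called 0 of them without G1724, with 2.65% of all genes called.

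**Figure D3:**
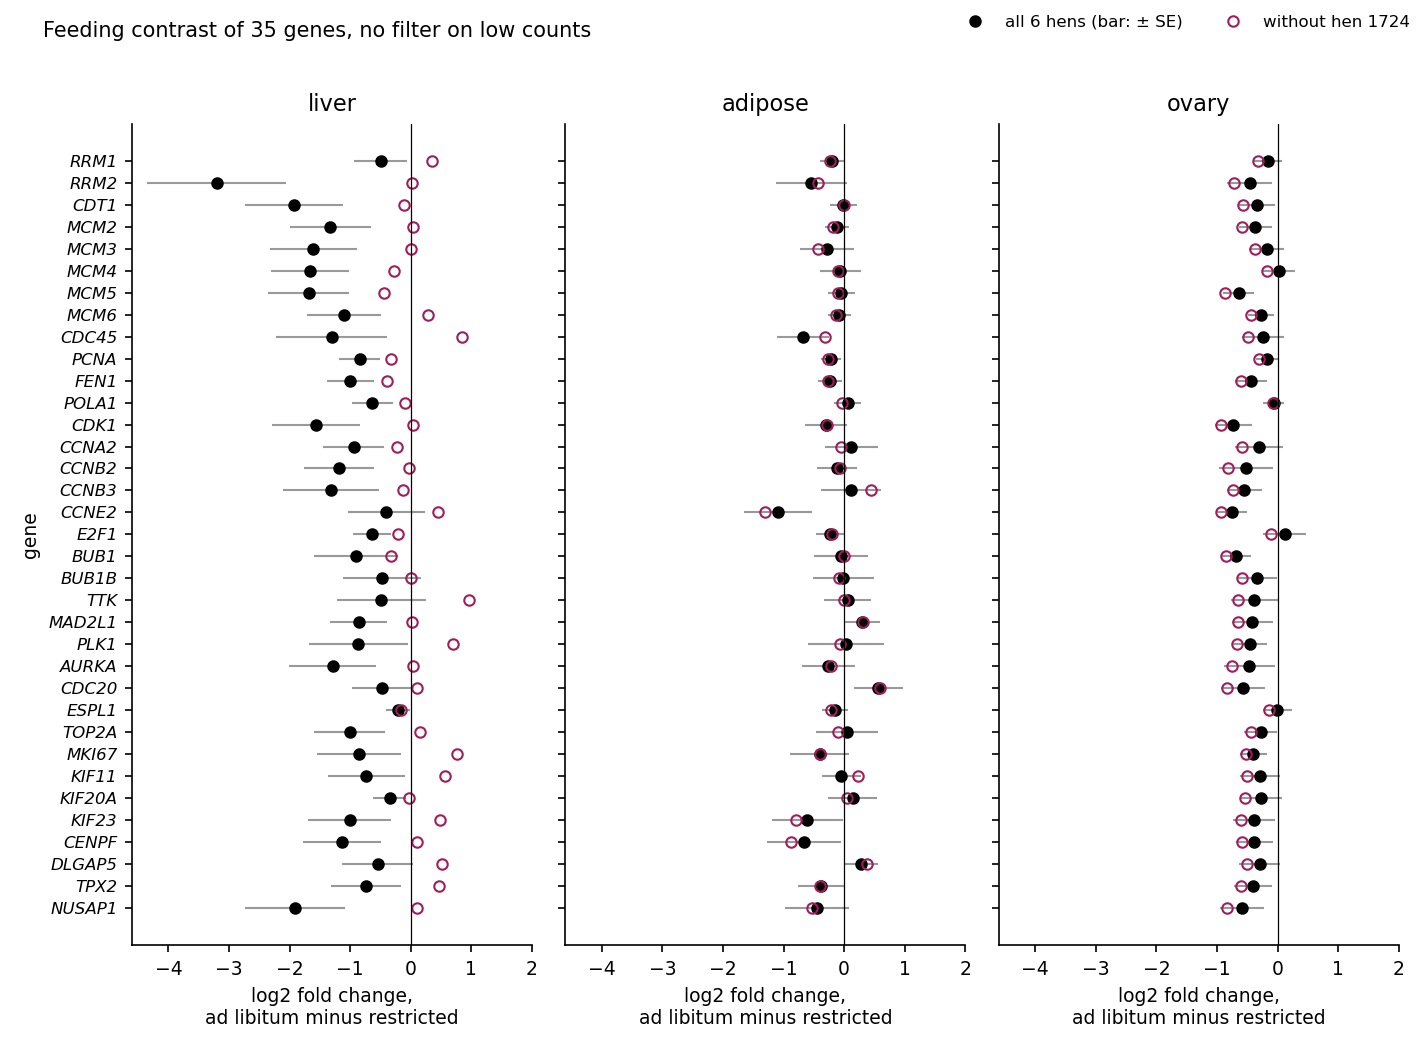
Log2 fold change (ad libitum minus restricted) of the 35 genes in each of the 3 tissues from edgeR fits with no filter, with all 6 hens (filled, bar ± SE) and without the hen of G1724 (open). In liver the filled points are all negative and the open points have a median of 0.031. In ovary 33 of the 35 filled points are negative.

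In adipose tissue no member separated the feeding groups by the test. The mean of the 35 genes on the scale of log2(CPM + 1) was 3.22, 3.005 and 2.85 in the ad libitum F1721, F1723 and F1725 and 3.16, 3.36 and 2.92 in the restricted F1724, F6709 and F6710. The groups overlapped, and F1724 was not the highest. Of the 34 genes that passed the filter (CCNE2 did not), 25 were negative and 9 positive, where 48.1% of all tested genes were negative. The median was -0.14, against 0.014 for all genes. The edgeR test called 0 of the 34, against 0.00839% of all genes, and 0 reached an unadjusted p under 0.05, against 5.19% of all genes. DESeq2 and the likelihood ratio tests with trended and with gene-wise dispersions called 0 as well, where they called 0.655%, 2.93% and 0.739% of all genes.

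Replication genes had the smallest p among the members that passed the filter in adipose tissue. PCNA was at 50.2, 44.2 and 44.45 CPM with ad libitum feeding and at 52.3, 54.4 and 59.6 CPM with restricted feeding, with a log2 fold change of -0.26 (SE 0.15, edgeR FDR 0.9075). FEN1 was at 16.5, 15.1 and 14.4 CPM against 17.96, 16.85 and 20.9 CPM, a difference of -0.28 (SE 0.19, edgeR FDR 0.9075). CDC45 was at 2.33, 2.27 and 1.79 CPM against 5.11, 2.67 and 2.75 CPM, a difference of -0.72 (SE 0.37, edgeR FDR 0.9075). The groups did not overlap for these 3 genes, RRM1 and CCNE2, which makes 5 of the 35. Among all tested genes 8.81% did not overlap, a set without CCNE2, which missed the filter. RRM1 was at 19.7, 17.4 and 20.7 CPM against 21.99, 24.9 and 21.4 CPM. CCNE2 was at 0.403, 0.359 and 0.326 CPM against 0.538, 1.05 and 0.804 CPM, close to the floor, with a log2 fold change of -1.09 (SE 0.56, edgeR FDR 0.840) without a filter.

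Of the 16 genes highest in F6709 among the adipose libraries, 6 were of the chromosome and spindle group, and KIF23 and CENPF changed sign without it. KIF23, a kinesin of the central spindle, was at 5.06, 2.21 and 2.12 CPM with ad libitum feeding and at 3.565, 8.53 and 2.55 CPM with restricted feeding. CENPF, a kinetochore protein, was at 3.14, 1.675 and 1.52 CPM against 2.35, 6.23 and 1.675 CPM. Their log2 fold changes, -0.64 (SE 0.57, edgeR FDR 0.9086) and -0.70 (SE 0.57, edgeR FDR 0.9075), became 0.061 and 0.093 without F6709. MKI67 was at 9.05, 4.55 and 3.80 CPM against 7.94, 11.3 and 4.36 CPM, TOP2A at 8.87, 6.76 and 5.75 CPM against 5.515, 12.4 and 3.15 CPM, and NUSAP1 at 2.87, 1.56 and 1.36 CPM against 2.35, 4.03 and 1.67 CPM. F6709 and F1721 were the high libraries for these genes, 1 in each group. The 16 of 35 genes with their highest adipose level in F6709 stand against 19.8% of all genes above 1 CPM in an adipose library. The summed epithelial markers were 849 CPM in F6709, 510 CPM in F1721 and 64.9 to 90.6 CPM in the other 4. Most of both high sums was KRT7 (360 CPM in F6709, 189 CPM in F1721) and KRT19 (263 and 223 CPM). EPCAM was at 78.5 CPM in F6709 but at 0 in F1721, and SOX9 was highest in F6709 and lowest in F1721. The part of these markers in the result was not tested. Without F6709, 18 of the 35 genes were negative with no filter, and the median was -0.0016.

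The remaining named genes gave no separation of the feeding groups in adipose tissue. RRM2 was at 3.495, 2.39 and 1.41 CPM against 4.24, 5.23 and 1.41 CPM, CDK1 at 13.35, 8.02 and 6.08 CPM against 12.2, 9.525 and 13.2 CPM, and CCNB2 at 7.71, 6.76 and 4.125 CPM against 7.53, 6.54 and 6.70 CPM. CCNB3 was at 3.18, 2.99 and 1.74 CPM against 3.565, 2.51 and 1.41 CPM, and BUB1 at 3.63, 1.97 and 2.01 CPM against 2.89, 3.14 and 2.08 CPM. The ring genes and CDT1 overlapped between groups as well. CDT1 was at 19.2, 24.7 and 24.1 CPM against 23.9, 18.4 and 28.3 CPM, and MCM6 at 19.0, 17.8 and 20.03 CPM against 19.4, 20.8 and 21.65 CPM. MCM2 was at 19.8, 17.3 and 17.6 CPM against 19.1, 21.9 and 20.1 CPM, and MCM5 at 11.7, 15.3 and 12.65 CPM against 13.1, 15.6 and 13.2 CPM. MCM3 was at 8.74, 7.24 and 6.08 CPM against 7.196, 15.2 and 4.96 CPM, and MCM4 at 13.7, 11.55 and 11.3 CPM against 12.4, 18.5 and 8.11 CPM, with F6709 the highest and F6710 the lowest library of both. The most positive member was CDC20, the activator of the anaphase promoting complex, at 7.12, 8.02 and 8.52 CPM against 5.72, 7.69 and 2.88 CPM and a log2 fold change of 0.53. RefSeq places ELOVL1 over CDC20.

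In the ovary nearly all members were lower with ad libitum feeding, without passing the test. The mean of the 35 genes was 6.77, 6.065 and 6.30 in M1721, M1723 and M1725 and 6.225, 6.95 and 7.02 in M1724, M6709 and M6710, so 1 ad libitum hen was among the high ovaries and 1 restricted hen among the low ones. All 35 genes passed the filter, 33 were negative and 2 positive (E2F1 and MCM4), where 52.2% of all tested genes were negative. The median was -0.38, against -0.017 for all genes. The edgeR test called 0 of the 35 (0% of all genes), and an unadjusted p under 0.05 was reached by 4 members, against 4.85% of all genes. DESeq2 and the likelihood ratio tests with trended and with gene-wise dispersions called 0, where they called 0.373%, 1.9% and 0.186% of all genes.

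CCNE2 was the only member whose ovary groups did not overlap, where 9.55% of all tested genes did not. It was at 21.1, 19.2 and 16.2 CPM with ad libitum feeding and at 22.8, 37.5 and 34.5 CPM with restricted feeding, a log2 fold change of -0.75 (SE 0.25, edgeR FDR 0.878). RefSeq places INTS8 and TP53INP1 over this gene. BUB1 was at 83.1, 58.9 and 58.3 CPM against 79.7, 113 and 127 CPM, a difference of -0.68 (SE 0.24, edgeR FDR 0.878). CDK1 was at 145, 77.4 and 95.8 CPM against 120, 195 and 212 CPM, a difference of -0.73 (SE 0.30, edgeR FDR 0.878), and MCM5 at 90.3, 76.8 and 84.5 CPM against 86.7, 135 and 171 CPM, a difference of -0.64 (SE 0.25, edgeR FDR 0.878). For BUB1, CDK1 and MCM5, M6709 and M6710 were above every ad libitum ovary and M1724 was not. CCNE2 was found only in the ovary part of the study's feeding lists, so its ovary difference is not independent of how it was found. BUB1, CDK1 and MCM5 stood in that part too, and also in the list of ovary expression.

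The other ovary members given here overlapped between groups. RRM2 was at 146, 71.7 and 78.4 CPM with ad libitum feeding and at 80.7, 146 and 179 CPM with restricted feeding, and CCNB2 at 1197, 493 and 859 CPM against 633, 1553 and 1448 CPM. CCNB3 was at 66.6, 46.7 and 43.9 CPM against 55.4, 67.8 and 107 CPM, and NUSAP1 at 185, 95.7 and 91.9 CPM against 116, 215 and 227 CPM. In each of these the ad libitum M1721 was above the restricted M1724. MKI67 was at 61.8, 63.2 and 42.0 CPM against 60.4, 84.8 and 74.4 CPM, and TOP2A at 39.9, 24.0 and 37.6 CPM against 31.2, 52.1 and 39.6 CPM. PCNA varied little, at 98.4, 97.1 and 90.9 CPM against 86.5, 115 and 121 CPM, and RRM1 was at 74.9, 49.6 and 74.3 CPM against 57.5, 89.3 and 75.8 CPM. The highest ovary level fell in M6710 for 22 of the 35 genes and the lowest in M1723 for 20, against 27.2% and 15% of all genes above 1 CPM in an ovary library.

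The helicase genes of the ovary overlapped between groups. CDT1 was at 83.8, 49.9 and 84.2 CPM against 60.3, 98.4 and 117 CPM, and MCM2 at 117, 77.2 and 103 CPM against 85.8, 156 and 141 CPM. MCM3 was at 47.5, 31.6 and 53.1 CPM against 35.5, 65.5 and 48.7 CPM, MCM4 at 72.7, 46.7 and 73.0 CPM against 44.6, 77.6 and 67.7 CPM, and MCM6 at 54.6, 45.02 and 52.6 CPM against 47.1, 60.9 and 76.5 CPM. M1723 was the lowest ad libitum ovary for each of these genes. By role, the median log2 fold change was -0.53 for the cyclin group, -0.44 for the checkpoint and kinase group, -0.38 for the chromosome and spindle group, -0.31 for nucleotide supply, -0.28 for the helicase group and -0.17 for DNA synthesis.

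Oocyte markers were high in the same ovaries as the members. The summed level of the 8 oocyte markers found (GDF9, BMP15, ZP2, ZP4, DAZL, KPNA7, MOS and ZAR1), none of them at 0 in an ovary, was 1812, 1021 and 936 CPM in M1721, M1723 and M1725 and 1182, 1961 and 2540 CPM in M1724, M6709 and M6710. The number given for ZAR1 in the study's lists belongs to ZAR1L in RefSeq GRCg7b, so which of these genes is meant is uncertain. M1721, M6709 and M6710 had the highest sums and also the highest means of the 35 genes. The sum of the granulosa markers was highest in the same ovaries too, with M6710 close to M1725. Among them AMH was at 778, 422 and 585 CPM with ad libitum feeding and at 473, 1068 and 700.5 CPM with restricted feeding. STAR and CYP11A1 were instead highest in M1723, and CYP19A1 was lowest in M6710, at 69.0 CPM. In the hen CYP19A1 is not a specific granulosa marker, so the sum of this list is not of granulosa cells alone. Of the 10 genes of the list, 6 were higher and 4 lower with ad libitum feeding, with a median log2 fold change of 0.25. The erythroid sum was 9130 CPM in M1723 and 356 to 1323 CPM in the other ovaries, and the fibroblast sum was 15050 CPM in M1724 and 2201 to 5231 CPM in the others. COL1A2 gave 9987 CPM and DES 3400 CPM of the fibroblast sum in M1724. COL1A2, DES and DCN were highest in M1724, while LUM, PDGFRA and PDGFRB were not. The macrophage sum, over 11 markers with none at 0, was 627, 762.4 and 1098 CPM with ad libitum feeding and 345, 484 and 188 CPM with restricted feeding, so its groups did not overlap. All 11 macrophage markers were higher with ad libitum feeding, where 52.2% of all tested genes were lower. In the edgeR test 7 of them were under an unadjusted p of 0.05, against 4.85% of all genes, and none was called. The 7 endothelial markers and the 3 tested T cell markers were all higher too, and the 8 oocyte markers were all lower. CD14, C1QA, IL7R, GDF9 and MOS were found only in the ovary part of the study's feeding lists. Most other macrophage markers stood there too. These directions and p-values are therefore not independent of how the markers were found. The part of these shifts in the ovary differences was not tested. Leaving out 1 hen at a time, with no filter, gave 29 to 35 negative members and medians from -0.64 to -0.20, the smallest sizes without M6710 and without M1723. Without M1724, the restricted ovary with the lowest mean of the 35 genes, all 35 were negative. The likelihood ratio test with trended dispersions then called 5, CDK1, MCM5 and BUB1 among them. It called 7.78% of all genes there, against 1.9% with all hens. That fit was added after the data had been seen, and the named genes stood in the ovary part of the study's feeding lists.

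**Figure D4:**
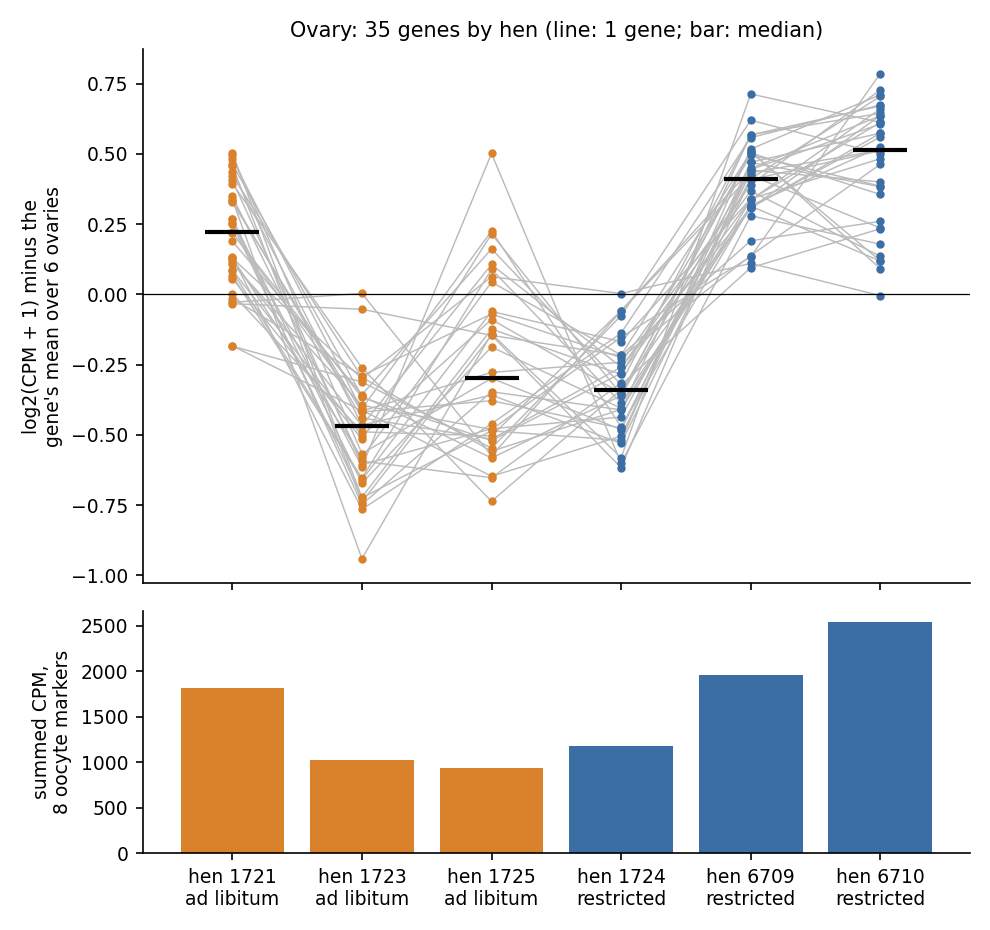
Top, log2(CPM + 1) of each of the 35 genes in 6 ovaries minus the mean of that gene over the 6 (each line 1 gene, black bar the median). Bottom, summed CPM of 8 oocyte markers in the same ovaries, with bars from 0. M1721, M6709 and M6710 are high in both, with oocyte sums of 1812, 1961 and 2540 CPM. The summed granulosa list, CYP19A1 included and not drawn, was highest in the same ovaries, with M6710 close to M1725. Single genes of that list were not always highest there.

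Across tissues the ovary had the highest levels of most members. On the joint TMM scale of 18 libraries, the mean of the 35 genes on the scale of log2(CPM + 1) was 5.58 ± 0.38 and 5.98 ± 0.46 (SD, n = 3) in the ad libitum and restricted ovaries, 2.80 ± 0.17 and 2.90 ± 0.21 (SD, n = 3) in adipose tissue, and 2.71 ± 0.072 and 3.27 ± 1.098 (SD, n = 3) in liver. The ovary contrast was conditioned by how symbols were found, since 31 of the 35 stood in the study's ovary list and 10 were found only there. Against adipose tissue the edgeR test called 34 of 35 higher in ovary and 0 lower, with a median of 3.23 on the log2 scale, where 35.5% of all genes were called higher and 37.4% lower. Against liver it called 32 higher and 1 lower (BUB1), with a median of 3.05, where 44.5% of all genes were called higher and 35.9% lower. The TMM factors were 0.42 to 0.50 in liver, 1.10 to 1.33 in adipose tissue and 1.59 to 1.79 in ovary. With library size alone the medians were 4.91 against liver, where 83.5% of all genes were called higher and 8.92% lower, and 3.745 against adipose tissue, where 51.9% were called higher and 22.1% lower. The direction of BUB1 against liver flipped with the scaling, as did those of PCNA and E2F1 given below, and it went from -1.15 with TMM to 0.70 with library size alone.

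The mitotic genes had the largest ovary differences. CCNB2 was at 603 ± 267 CPM in ovary, 9.79 ± 9.17 CPM in liver and 5.37 ± 1.04 CPM in adipose tissue (SD, n = 6, joint scale). AURKA, the Aurora A kinase, was at 171 ± 76.5 CPM, 2.73 ± 2.88 CPM and 1.07 ± 0.156 CPM in the same order. CDC20 was at 141 ± 58.7 CPM, 2.76 ± 1.35 CPM and 5.46 ± 1.73 CPM. The medians by role against adipose tissue were 4.71 for the checkpoint and kinase group, 3.88 for the cyclin group, 3.57 for the chromosome and spindle group, 3.01 for nucleotide supply, 2.02 for the helicase group and 0.50 for DNA synthesis.

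The ovary differences of PCNA, E2F1 and POLA1 were small against at least 1 of the other tissues on the joint TMM scale. PCNA was at 59.05 ± 9.35 CPM in ovary, 65.6 ± 35.1 CPM in liver and 41.6 ± 4.61 CPM in adipose tissue (SD, n = 6, joint scale), with an ovary to liver log2 difference of -0.095 (SE 0.19, edgeR FDR 0.665) that became 1.77 with library size alone. E2F1 was at 21.4 ± 6.75 CPM, 29.9 ± 12.8 CPM and 20.5 ± 4.48 CPM in that order, and neither ovary contrast was called for it. Its ovary to liver difference changed direction too, from -0.45 with TMM to 1.41 with library size alone. POLA1 was at 38.5 ± 4.48 CPM in ovary, 17.2 ± 8.105 CPM in liver and 29.1 ± 4.64 CPM in adipose tissue, with TMM-scaled ovary differences of 1.20 against liver and 0.40 against adipose tissue. Every ovary library lay above every adipose library for 33 of the 35 genes (all but POLA1 and E2F1), against 23% of all genes. Every ovary lay above every liver for 21 of the 35, against 33.4% of all genes, and for 32 once the hen of G1724 was left out (all but PCNA, E2F1 and BUB1), against 35.4%. With library size alone and all hens it was 33 of the 35 (all but E2F1 and BUB1), against 74% of all genes.

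The order of liver and adipose tissue depended on the scaling and on 1 hen. On the joint TMM scale the edgeR test called 11 members higher in liver and 4 lower (CDT1, POLA1, CDC20 and DLGAP5), with a median of 0.225, where 33.4% of all genes were called higher and 42.2% lower. With library size alone it called 1 higher and 23 lower, with a median of -1.13, where 10.8% of all genes were called higher and 79% lower. Without the hen of G1724 the counts on the TMM scale were 4 higher and 14 lower, and the median was -0.29. The share of all genes called in that fit is not given here, so these counts have no background beside them. BUB1, at 114 ± 85.98 CPM in liver and 2.15 ± 0.580 CPM in adipose tissue (SD, n = 6, joint scale), was higher in liver under both scalings.

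**Figure D5:**
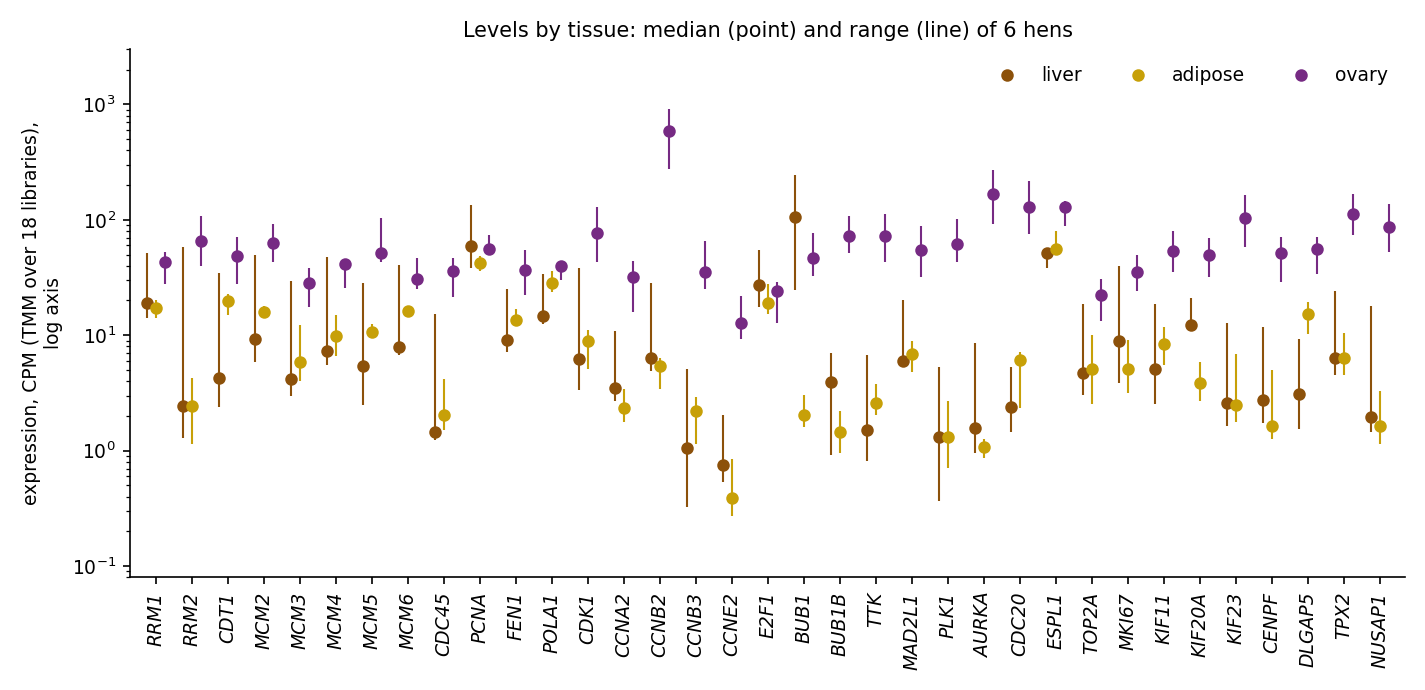
Level of the 35 genes in the 3 tissues (CPM, TMM over 18 libraries, log axis). Points are medians and lines the range of 6 hens. The ovary lies above adipose tissue in every library for 33 of the 35 genes, and the long liver lines end in G1724 at their top.

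Feeding effects on these genes were not called different between tissues. The feeding effect in liver minus that in adipose tissue was negative for 34 of 35 members, against 50.4% of all genes, with a median of -0.84, and the edgeR test called 0 members (0% of all genes), with 1 member under an unadjusted p of 0.05, against 5.41% of all genes. Liver minus ovary was negative for 33, against 48.2%, with a median of -0.58, 0 calls (0% of all genes) and 1 member under 0.05, against 5.33%. Ovary minus adipose was negative for 24, against 53%, with a median of -0.25, 0 calls (0% of all genes) and 0 members under 0.05, against 5.45%. These differences share their ovary, liver or adipose libraries with each other. Without the hen of G1724 the medians were 0.20, 0.73 and -0.40, so both liver differences changed sign. Liver minus ovary was then positive for 33 members, with 7 under an unadjusted p of 0.05 in the edgeR test. Ovary minus adipose had 2 such members and liver minus adipose 1, and 0 were called. The shares of all genes in these fits are not given here. MCM5 had the smallest p for liver minus adipose, at -1.61 (SE 0.73, edgeR FDR 0.904), and -0.34 without the hen of G1724.

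Further genes of the same pathways, 76 in all, were mostly negative too and none was called. They comprised 20 of 42 listed other replication genes, 40 of 60 other mitotic genes and 16 of 31 genes of G1 and S control. The rest were not found among the published pairs. Some of the 76 were found only in the study's feeding lists, so their shares are not independent of how they were found. In liver 51 were tested, 45 of them negative (50.4% of all genes), with 0 calls, 6 under an unadjusted p of 0.05 (13.7% of all genes) and a median of -0.35. G1724 was over 2 times every other liver for 35 of the 76, against 1.45% of genes above 1 CPM in a liver library. Their liver direction without G1724 is not given here. In adipose tissue 67 were tested, 48 of them negative (48.1% of all genes), with 0 calls, 4 under 0.05 (5.19% of all genes) and a median of -0.17. In ovary all 76 were tested, 63 of them negative (52.2% of all genes), with 0 calls, 2 under 0.05 (4.85% of all genes) and a median of -0.36. The G1 and S control genes, which act before replication, had the smallest medians in each tissue, with values of -0.16 for liver, -0.048 for adipose tissue and -0.11 for ovary.

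The smallest p among these further genes in liver were those of CKS1B, a subunit of cyclin-dependent kinases, RFC5, of the clamp loader, and POLD2, of polymerase delta. CKS1B was at 3.11, 1.69 and 1.575 CPM with ad libitum feeding and at 9.22, 3.61 and 3.72 CPM with restricted feeding, a log2 fold change of -1.365 (SE 0.46, edgeR FDR 0.324). RFC5 was at 5.96, 3.64 and 6.30 CPM against 13.6, 7.82 and 8.26 CPM, and POLD2 at 7.31, 7.13 and 7.201 CPM against 11.4, 8.95 and 11.4 CPM. These 3 genes were picked by p, which favours groups that do not overlap, and 21.2% of all tested liver genes did not overlap. In all 3 genes the groups did not overlap, with G6709 and G6710 also above the ad libitum livers. In adipose tissue they were ASPM, of the spindle poles, at 5.24, 5.32 and 4.18 CPM against 8.27, 8.79 and 9.985 CPM (log2 fold change -0.88, SE 0.25, edgeR FDR 0.890), MYBL1, a transcription factor, at 0.672, 0.8375 and 0.814 CPM against 1.95, 1.52 and 1.21 CPM, and CDKN1A, the kinase inhibitor p21, at 18.5, 26.5 and 21.3 CPM against 4.98, 16.3 and 8.11 CPM. The groups did not overlap for these genes either, where 8.81% of all tested genes did not overlap, and none was called. In ovary they were CDKN2B, a kinase inhibitor, at 1.46, 2.02 and 5.41 CPM against 1.06, 0.960 and 0.651 CPM, CEP55, of cytokinesis, at 36.35, 10.7 and 13.15 CPM against 32.9, 50.5 and 57.7 CPM, and ASPM at 48.2, 33.65 and 39.15 CPM against 50.1, 68.3 and 50.5 CPM. The groups overlapped for CEP55 only, where 9.55% of all tested ovary genes did not overlap. POLD2, MYBL1, CDKN2B and CEP55 were each found only in the study's feeding list of the tissue named here. Their differences there are therefore not independent of how they were found.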

How the data were processed

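RNA from liver, abdominal fat and ovary of 6 hens was sequenced by the study as paired-end libraries (NEBNext Ultra kit). Whether the counting used strand is not given in the sources used here. The deposited counts are whole, unnormalized reads per Ensembl gene. Per the labels and the study's methods, the authors used CASAVA 1.8, TopHat2 2.1.1, Bowtie2 2.0.6, the Gallus_gallus-5.0 genome and edgeR, and counted reads in R with GenomicAlignments. Reads of near-identical or overlapping genes may have been split or lost. Columns were matched to samples by hen and tissue letter (G liver, F adipose, M ovary). No annotation of that genome build was used here, so positions are not given. Promoter motifs were not searched.

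The members, gene lists, tests and alternatives were chosen with earlier results of these data known. Feeding was tested per tissue by the quasi-likelihood test of edgeR 4.0.16 in R 4.3.3, with TMM factors and a Benjamini-Hochberg FDR under 0.1, over genes whose 3 libraries of either feeding group all exceeded 1 CPM. Tissues and differences of feeding effects were tested in 1 fit of 18 libraries, with the same rule over 6 groups. Members that missed the filter were taken from a fit with none. SEs come from the F statistic. DESeq2 1.42.0 and likelihood ratio tests were alternatives. The fits were tested on simulated data. Python 3.11.15 made the tables (pandas 2.3.3) and figures (matplotlib 3.10.9). Any member could be named. Values in every library were due for RRM1, RRM2, CDT1, the MCM genes, PCNA, CDK1, CCNB2, CCNB3, BUB1, TOP2A, MKI67 and NUSAP1, for the 3 members of smallest p and the 3 of largest fold change in a tissue, and for the 3 further pathway genes of smallest p.

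The same hen gave all 3 tissues, so hens pair the tissues. Over 13426 genes, deviations from the group means of same-hen libraries correlated on average by 0.17 between ovary and adipose tissue, 0.040 between liver and adipose tissue and -0.028 between ovary and liver. A fit with the hen as a block was the alternative for tissue contrasts and differences of feeding effects. The depth was 14793554 to 23261748 counts per library, which bounds what low genes can show. All columns of the count table were used.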

Additional observations from a re-analysis of the deposited data

How the results depend on the processing

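Members that missed the filter were tested without a filter only. No member was called for feeding in any tissue by the edgeR quasi-likelihood test under RLE size factors, library size alone, the other filters, all 18 libraries in 1 fit, an FDR under 0.05 or with any hen left out, nor by DESeq2 or by likelihood ratio with gene-wise dispersions. With trended dispersions the likelihood ratio test called 10 members in liver, CDT1, MCM2 to MCM6, PCNA, CDK1, CCNB2 and BUB1. With that test and the hen of G1724 left out, an alternative added after the data had been seen, 0 were called in liver (2.65% of all genes), where the median was -0.030, and 5 in ovary (7.78% of all genes), where MCM5 (-0.85), CDK1 (-0.93) and BUB1 (-0.84) passed.

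Leaving out 1 hen at a time moved the liver median from -1.29 to -0.030 among members that passed the filter, and from -1.335 to 0.031 with no filter. It moved the adipose medians from -0.28 to -0.0067 and the ovary medians from -0.64 to -0.19. Without G1724, under both the quasi-likelihood and the trended likelihood ratio test where they passed the filter, the liver value changed sign for RRM1 (0.36), MCM2 (0.032), MCM3 (0.0048), MCM6 (0.28), CDK1 (0.040), TOP2A (0.16) and MKI67 (0.77), and with no filter for RRM2 (0.024) and NUSAP1 (0.10). Leaving out the other hens 1 at a time, the lowest liver values were -0.81, -1.80, -2.02, -1.48, -2.04, -1.41, -1.32, -3.76 and -2.40 in that order. Without F6709 the adipose value changed sign for KIF23 (0.061) and CENPF (0.093), whose lowest values were -1.18 and -1.11. The median of liver minus adipose ranged from -1.40 to 0.20 and that of liver minus ovary from -1.07 to 0.73.

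With library size alone, ovary against liver had 0 members called lower, where 8.92% of all genes were, and a median of 4.91. Ovary against adipose had a median of 3.745. Liver against adipose had 1 member called higher and 23 lower, where 10.8% of all genes were called higher and 79% lower. Its median was -1.13. The mean of the members then differed by 4.37 for ovary minus liver, 3.47 for ovary minus adipose and -0.90 for liver minus adipose, against 2.79, 2.93 and 0.14 with TMM. Leaving out 1 hen gave 0 to 2 members lower in ovary than liver, and 4 to 14 higher and 4 to 14 lower in liver than adipose. With the hen as a replicate block, 32 members were called higher and 1 lower in ovary than liver, and 34 higher in ovary than adipose. In liver against adipose, 8 were called higher and 4 lower. The shares of all genes called in the fits with 1 hen left out and with the block are not given here. The block moved no count of calls by over 1.5 times, and 0 members were called for a difference of feeding effects.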

Other observations

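The liver library G1724 differed from the other 5 livers in more than the 35 genes. Of 11329 genes above 1 CPM in a liver library, 164 were over 2 times every other liver there, against 33 to 52 in each other liver. They held 27 of the 35 members and 35 of the 76 further pathway genes, and 37 genes had a symbol but stood in no list. Among the latter, chosen after their values were seen, were the DNA repair genes BRCA1, at 10.7 CPM and at most 1.30 CPM elsewhere, and BARD1, at 3.36 and at most 0.513 CPM. UHRF1, which maintains DNA methylation after replication, was at 13.8 and at most 4.82 CPM, and CDCA7 at 18.1 and at most 3.77 CPM.

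In the same liver 429 genes were under 0.5 times every other liver, against 17 to 36 in each other liver, and none was a member. They included RRP1B at 0.765 CPM and at least 19.95 CPM elsewhere, RRP12 at 0.680 and at least 8.16 CPM, and RRP15 at 0.680 and at least 6.41 CPM, which act in ribosome making, and the endothelial genes STAB2 at 4.42 and at least 29.1 CPM and FLT4 at 0.680 and at least 4.62 CPM. These names were also chosen after their values were seen.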
